A study of Homo sapiens with 12 samples.

Results

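The comparison described here is the second step of neural differentiation in wild-type H9 cells, day 8 against day 4. H9 is an established human embryonic stem cell line. Its members are the 2 wild-type libraries of day 4 and the 2 of day 8, chosen by their labels, 4 of the 12 libraries of the series, and every gene expressed in the table: 24248 of 58219 identifiers reached 1 TPM in at least 2 of the 12 libraries and were tested. The study asked what the transcription factor SOX21 does in early neural differentiation, and sequenced polyadenylated RNA of H9 cells that were wild type or labelled SOX21-/- at days 0, 4 and 8. The wild-type cells carry no modification named in the labels; all groups share the H9 background and the differentiation, whose protocol the labels do not give. The day 0 cells are labelled embryonic stem cells, and the day 4 and day 8 cells are labelled neural progenitors. Whether WT1 and WT2 were separate cultures is not given. The p-values below measure only the spread between replicate libraries, estimated over all 6 groups of the 12 libraries, and this spread may be technical. The SOX21-/- libraries are named S13 and S23 at each day, so in those groups the spread may also hold a difference between knockout lines.

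As background, pluripotent cells that take a neural fate silence the pluripotency network, switch on SOX1 and PAX6 and form a neuroepithelium of anterior character. In that epithelium a neighbouring cell's DLL or JAG ligand activates a NOTCH receptor, whose freed intracellular part joins the DNA-binding protein RBPJ and switches on HES and HEY repressors, which keep progenitors from becoming neurons. FEZF2 and the EMX genes mark the telencephalon, from which the cortex arises, while RAX and SIX6 mark the eye field and hypothalamus, and PAX2 marks the midbrain border and optic stalk.

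TPM gives each gene's share of a library's transcripts and keeps no read number, so the depth and counting error of each library are unknown. Fold changes are differences of the group means of log2(TPM + 1), so a change between low levels comes out too small, and adjusted p-values are from limma over all 24248 genes. A gene is said to have risen, fallen or been called where its adjusted p was under 0.05. Pearson's r across genes, which are no replicates of each other, was 0.962 between the day 4 libraries, 0.955 between the day 8 libraries and 0.933 to 0.936 between days. The day 4 and day 8 wild-type libraries held 18870 to 19834 genes at 1 TPM or more, and nuclear protein-coding genes took 83.55% to 86.97% of their TPM, against 55.94% in both wild-type day 0 libraries. The day 0 libraries thus stood apart, and they entered the fit through the shared estimate of spread and the filter; with only the 8 libraries of days 4 and 8, 2329 of 22353 genes were called. In these bulk samples, fewer cells of a type and less RNA per cell cannot be told apart.

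From day 4 to day 8 the wild-type cells gained HES5, HES4, WNT7B and FEZF2 and lost HES3, POU5F1, PAX2 and HESX1, each by more than 8-fold. Of the 24248 genes, 3058 were called, which is 12.6%: 1848 were higher at day 8 (7.62%) and 1210 lower (4.99%). The split depended on scaling: it was 1193 higher and 1434 lower after median-of-ratios scaling, and 1407 and 1453 after quantile normalization. At least a 2-fold change was seen in 1032 of the higher and 410 of the lower genes, and at least a 4-fold change in 199 and 100. The count also depended on single libraries: it was 1065 without WT1 day 4, 1038 without WT2 day 4, 1043 without WT1 day 8 and 1342 without WT2 day 8. For 434 of the higher genes both day 4 libraries were under 1 TPM, and for 164 of the lower genes both day 8 libraries were. Protein-coding genes were called more often (2336 of 14450, 16.2%) than lincRNA and antisense genes (386 of 4465, 8.65%), a difference in share that was not tested. Counts of called genes in the lists below are to be read beside these shares.

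**Figure D1:**
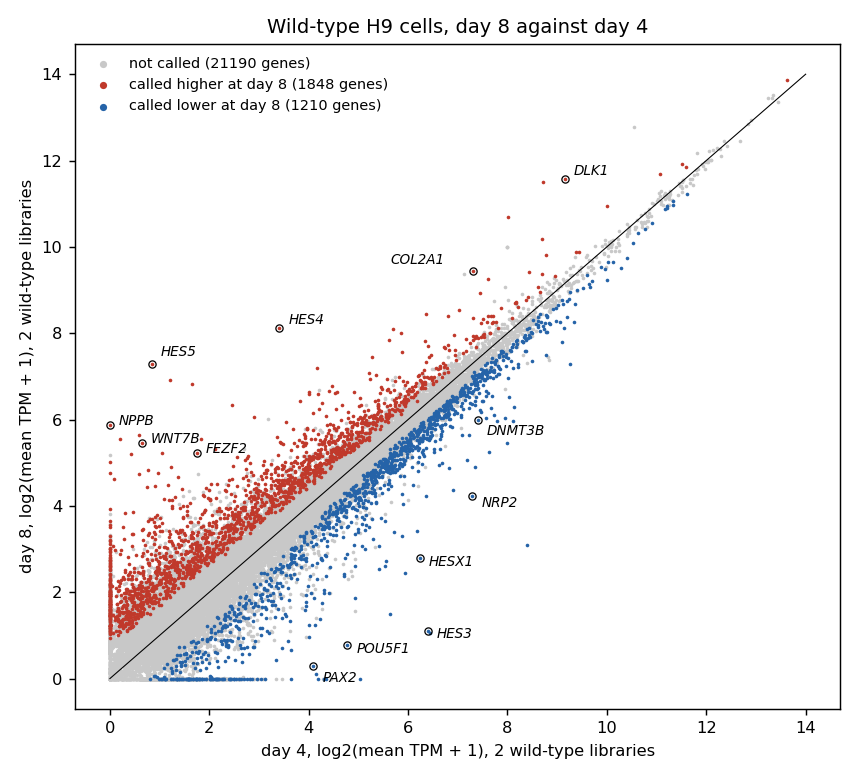
Each point is 1 of the 24248 genes tested, with its mean level in the 2 wild-type day 4 libraries on the x axis and in the 2 day 8 libraries on the y axis, both as log2(mean TPM + 1); the line marks equal levels. The 1848 genes called higher (red) lie above the line and the 1210 called lower (blue) below it, with HES5, HES4 and WNT7B far above and HES3, POU5F1 and PAX2 far below.

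The label of neural progenitors was checked against some of its markers. SOX2, a factor of both stem cells and neural progenitors, stood at 432 and 426 TPM at day 4 and 414 and 386 at day 8, and its groups differed by a log2 change of -0.10 (adjusted p = 0.72). PAX6, which marks human neuroectoderm, stood at 99.7 and 106 and then 126 and 95.1 TPM, with overlapping groups. NANOG, a core pluripotency factor, was at 0.129 to 0.236 TPM in all 4 libraries. The cells of both days thus carried high SOX2 and PAX6 and little NANOG. Other markers, given below, went the other way. HES5 was near the detection filter at day 4, and SOX1 was lower then than at day 8. The pluripotency genes POU5F1, at day 4, and DPPA4, at both days, were still present, so the markers bear out the day 4 label only in part. SOX21 itself was at 156 and 166 TPM at day 4 and 129 and 100 at day 8, a log2 change of -0.50 that did not pass (adjusted p = 0.55). WNT8B, the WNT ligand named in the study's title, was at 2.78 and 3.19 and then 1.596 and 0.317 TPM, and did not pass either (log2 change -1.10, adjusted p = 0.21).

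NOTCH genes held the largest rise of the step. Of 24 genes of the pathway, 23 were tested, 11 rose and 2 fell, with a median log2 change of 0.63 beside 0.028 over all genes tested; 6 of the rises and 1 of the falls were called without each of the 12 libraries in turn. HES5, a repressor that NOTCH switches on in neural progenitors (ENSG00000197921.5, GRCh38 chr1:2528745-2530245, minus strand), stood at 0.574 and 1.002 TPM at day 4 and 156 and 157 at day 8. It was near the detection filter in both day 4 libraries and almost equal in the day 8 ones. The change was 6.47 ± 0.19 on the log2 scale (SE from the spread shared over all groups, n = 2 per day, adjusted p = 4.24e-06). HES4, a related repressor (chr1:998962-1000172, minus strand), was at 8.76 and 10.5 TPM and then 317 and 238, a log2 change of 4.70 ± 0.20 (SE; adjusted p = 3.22e-05). The lincRNA RP3-395M20.12, which overlaps the start of HES5 on the opposite strand, rose with it, from 1.49 and 1.16 to 124 and 115 TPM; whether the counting used strand is not given, so the 2 genes' reads may not be separable.

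Other members of the HES family moved the other way. HES3, a repressor of early neuroepithelial cells, stood at 78.8 and 88.0 TPM at day 4 and 1.22 and 1.09 at day 8, a log2 change of -5.29 ± 0.28 (SE; adjusted p = 8.87e-05). HES3 (chr1:6244192-6245578, plus strand) was the protein-coding gene with the largest fall of those that reached 5 TPM with non-overlapping days. HES1, which is expressed in many progenitors, fell from 44.6 and 57.9 to 7.40 and 11.7 TPM (log2 change -2.32, adjusted p = 0.0113), but its adjusted p was 0.0722 to 0.0743 without WT1 day 8 or WT2 day 4. HEYL rose from 0.971 and 1.02 to 5.26 and 4.33 TPM (log2 change 1.53), with an adjusted p of 0.0568 to 0.0703 without WT1 day 4, WT2 day 4 or WT1 day 8. HES6, which opposes HES1 activity, was level: 20.4 and 22.3 TPM, then 18.5 and 24.7. At day 0 HES5 and HES4 had been under 1 TPM, and HES3 at 14.8 and 11.03 TPM, so HES3 was highest at day 4 and HES5 and HES4 at day 8.

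The promoter stretches of the HES and HEY genes that moved are shown because NOTCH acts on DNA through RBPJ, whose core motif is TGGGAA. They come from RefSeq on GRCh38.p14, 130 to 31 bases before the annotated start, written 5′ to 3′ on the gene's strand, with TGGGAA or its reverse complement TTCCCA in capitals. They are HES5 (chr1:2530294-2530393, minus strand), HES4 (chr1:1000128-1000227, minus), HEYL (chr1:39639674-39639773, minus), HES1 (chr3:194136018-194136117, plus) and HES3 (chr1:6244049-6244148, plus).
HES5: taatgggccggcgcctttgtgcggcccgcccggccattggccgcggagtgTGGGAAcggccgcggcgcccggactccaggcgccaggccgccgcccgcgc
HES4: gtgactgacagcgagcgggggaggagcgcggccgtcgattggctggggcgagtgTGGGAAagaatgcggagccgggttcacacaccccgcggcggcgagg
HEYL: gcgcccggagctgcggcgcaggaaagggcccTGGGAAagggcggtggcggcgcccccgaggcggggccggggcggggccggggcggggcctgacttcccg
HES1: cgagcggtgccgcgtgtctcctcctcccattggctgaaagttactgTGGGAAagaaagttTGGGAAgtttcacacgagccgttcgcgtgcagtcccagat
HES3: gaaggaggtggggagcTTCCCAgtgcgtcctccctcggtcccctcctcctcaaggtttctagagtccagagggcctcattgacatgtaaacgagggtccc

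TGGGAA lay on the gene's strand 80 bases upstream of the start in HES5, 76 in HES4, 99 in HEYL, and 84 and 70 in HES1, while HES3 held it on the other strand only, 114 bases upstream. Both strands of the bases upstream of each start were searched, further upstream than the stretches shown, and the shares below are of that longer search. It also found TTCCCA 224 bases upstream in HES5, 213 in HEY2 and 178 in HEYL, and TGGGAA 248 bases upstream in LFNG. All shares are of genes with a promoter in the table, which many tested genes lacked. The motif was in 7 of 17 such NOTCH genes (41.2%) and in 289 of 1092 such genes called higher (26.5%). It was in 201 of 818 called lower (24.6%) and in 2962 of 11732 tested (25.2%). HES1, which fell, and HES5 and HES4, which rose, all held it on the same strand within 100 bases of the start. A match describes the letters and is not a binding measurement.

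Ligands, receptors and modulators of the pathway rose as well. DLL1, the delta ligand of nascent neurons and progenitors, was at 38.4 and 36.8 TPM at day 4 and 178 and 169 at day 8 (log2 change 2.17 ± 0.24, SE; adjusted p = 0.00176). LFNG, which adds sugars to NOTCH and tunes its response to ligands, went from 54.8 and 59.7 to 275 and 234 TPM (log2 change 2.13). NRARP, a target and feedback inhibitor of NOTCH, and NOTCH1 rose by log2 changes of 1.52 and 1.197. In each of these 4 genes both day 8 libraries lay above both day 4 libraries. The days did not overlap in 55.1% of all genes tested. NOTCH2 (50.1 and 58.2, then 50.0 and 45.7 TPM) and NOTCH3 (77.5 and 88.8, then 67.2 and 63.1) did not pass, with adjusted p of 0.418 and 0.0583. DLK1, an imprinted, secreted or membrane-bound relative of the delta ligands, had 529 and 608 TPM and then 3194 and 2908 (log2 change 2.42, adjusted p = 0.00873), with an adjusted p of 0.0557 to 0.0576 without WT1 day 4 or WT1 day 8. JAG1 rose by 0.95, with an adjusted p of 0.0607 to 0.0815 without WT1 day 4, WT2 day 4 or WT1 day 8.

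**Figure D2:**
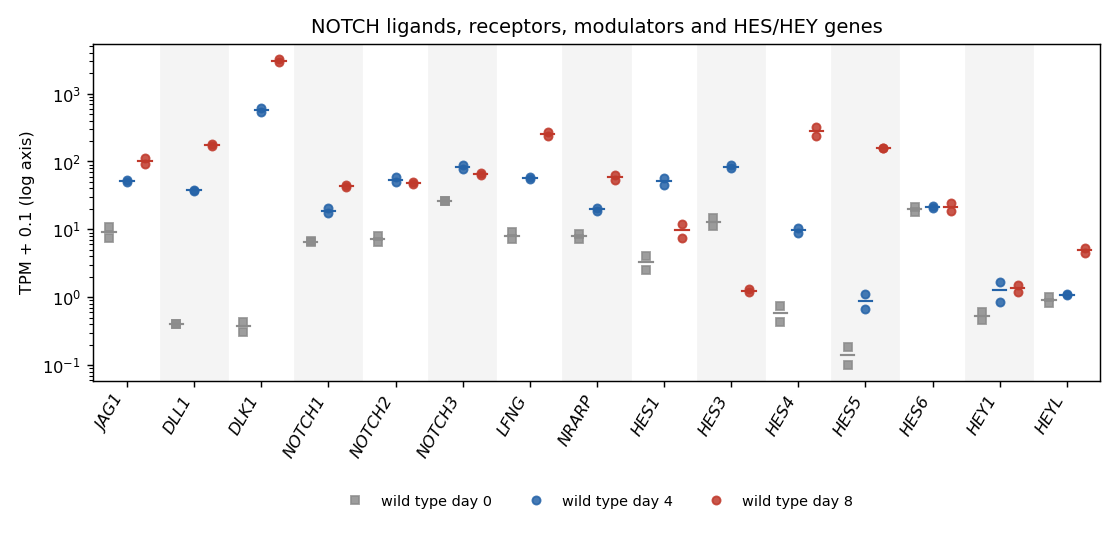
TPM + 0.1 (log axis) of 15 NOTCH pathway genes in each wild-type library at day 0 (grey squares), day 4 (blue) and day 8 (red); short bars are group means of 2 libraries. HES5 goes from 0.574 and 1.002 TPM at day 4 to 156 and 157 at day 8, and HES3 from 78.8 and 88.0 to 1.22 and 1.09.

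Of 24 genes of the telencephalon 17 were tested, 7 rose and 2 fell, with a median log2 change of 0.61; 2 rises and 1 fall were called without each library in turn. The summed level of the list was 712.5 to 747.3 TPM at day 4 and 631.6 to 662.5 at day 8, of which FEZF1, which fell, held 438 and 433 and then 193 and 165 TPM. FEZF2, a factor of forebrain progenitors and later of deep-layer cortical neurons, rose from 2.52 and 2.19 to 44.2 and 28.1 TPM (log2 change 3.44, adjusted p = 0.00132). DMRTA1, a DM-domain factor of telencephalic progenitors, rose from 1.29 and 1.41 to 37.5 and 20.5 (log2 change 3.62, adjusted p = 0.000196). The cortical homeobox genes EMX2 and EMX1 were lower in level, with day 8 values of 10.5 and 9.19 TPM and of 8.00 and 8.26 TPM. Both rose (log2 changes 2.79 and 1.74), but EMX2 had an adjusted p of 0.0528 to 0.0620 without WT1 day 4, WT2 day 4 or WT1 day 8, and EMX1 one of 0.0545 without WT1 day 4. LHX2, which patterns the cortex and the eye, was already at 60.2 and 78.9 TPM at day 4 and at 85.7 and 87.2 at day 8 (log2 change 0.32, adjusted p = 0.282). FEZF1, the paralog of FEZF2, fell from 438 and 433 to 193 and 165 TPM (log2 change -1.28, adjusted p = 0.00603).

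Eye field and hypothalamic genes moved in both directions. Of 18 eye and optic genes 12 were tested, 3 rose and 3 fell, with a median of 0.12; 2 rises and 0 falls were called without each library in turn. RAX, needed to form the eye, fell from 104 and 120 to 36.4 and 20.6 TPM (log2 change -1.99, adjusted p = 0.00757; 0.0535 without WT2 day 4). SIX6 was at 2.95 and 4.58 TPM at day 4 and listed at 0 in both day 8 libraries (adjusted p = 0.00734; 0.0527 without WT2 day 4). SIX3, a factor of the most anterior neural plate, fell from 93.2 and 110 to 46.0 and 58.2 TPM, but had an adjusted p of 0.0542 to 0.140 without any 1 of the 4 wild-type libraries. VAX1, a factor of the ventral forebrain and optic stalk, rose from 0.112 and 0.0805 to 2.55 and 3.96 TPM. NR2F1, which is graded across the cortex, rose from 18.5 and 22.1 to 107 and 93.7 TPM (log2 change 2.26 ± 0.15, SE; adjusted p = 0.000210). Of 5 hypothalamic genes tested, 3 fell and 0 rose; they were FEZF1, SIX6 and RAX, which other lists hold too. OTX2, an anterior factor, was at 214 and 218 TPM and then 287 and 254 (adjusted p = 0.535).

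In the list of thalamus, hem and dorsal midline 18 genes were tested, 1 rose and 3 fell, with a median of -0.52; the rise and 0 of the falls were called without each library in turn. The gene that rose, WNT7B, a WNT ligand that is also made in the cortex (chr22:45920362-45977129, minus strand), went from 0.471 and 0.644 to 44.4 and 41.3 TPM (log2 change 4.82 ± 0.16, SE; adjusted p = 5.91e-06). FOXB1 and DBX1, factors of diencephalic and ventricular progenitors, fell from 3.41 and 3.67 to 0.278 and 0.134 TPM and from 18.2 and 15.53 to 6.76 and 3.95. Both depended on single libraries: FOXB1 had an adjusted p of 0.0611 to 0.0735 without any 1 of the 4 wild-type libraries, and DBX1 of 0.0521 to 0.0740 without WT1 day 4, WT2 day 4 or WT2 day 8. PAX2 (chr10:100735603-100829941, plus strand) fell from 13.2 and 18.9 to 0.0344 and 0.425 TPM (log2 change -3.79 ± 0.37, SE; adjusted p = 0.000945), the only call among 5 midbrain and isthmus genes tested. Of the 16 genes of that list 11 were under 1 TPM in all 4 libraries, among them EN1, EN2 and PAX5. FGF8, an organiser ligand also made at the front of the forebrain, stood at 42.2 and 40.9 and then 52.1 and 61.3 TPM. SPRY1 stood at 77.5 to 107 TPM, and PAX8 and PAX3 at 1.38 to 4.49 TPM. None of these 4 was called. Under 1 TPM were also 14 of 16 hindbrain and spinal cord genes, HOXA3 and HOXD3 among them at 0. HESX1, a repressor of the early anterior neural plate, fell from 77.9 and 70.5 to 5.83 and 5.97 TPM (log2 change -3.44, adjusted p = 0.000177). Called were 22.2% of the thalamus, hem and dorsal midline genes tested and 20% of the midbrain and isthmus genes, beside 12.6% of all genes.

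**Figure D3:**
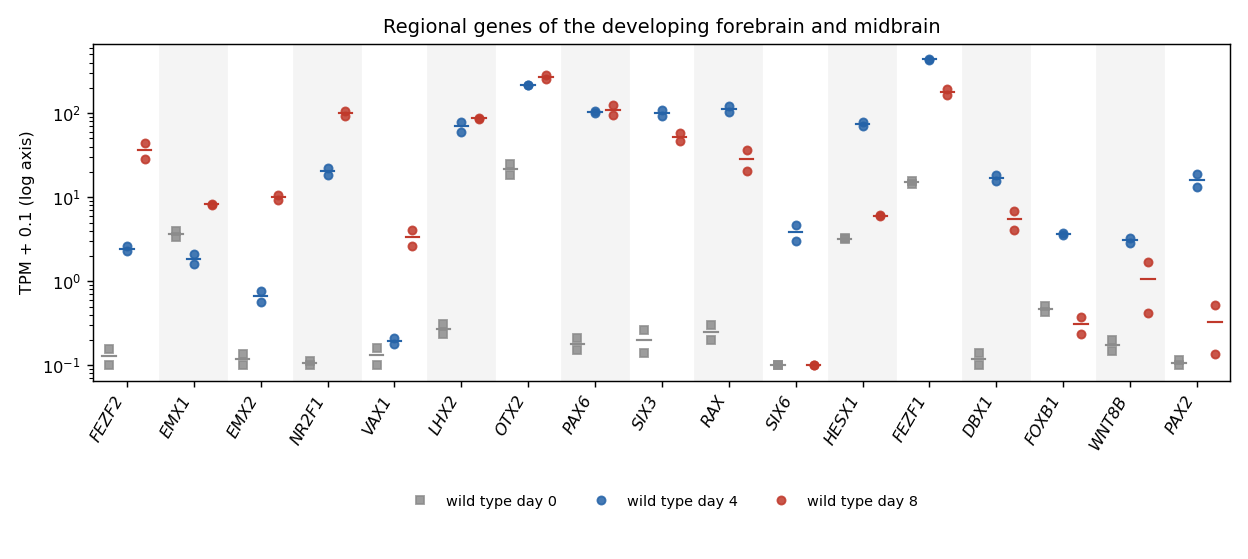
TPM + 0.1 (log axis) of 17 regional genes in each wild-type library at day 0 (grey squares), day 4 (blue) and day 8 (red), with group means of 2 libraries as short bars. FEZF2 rises from 2.52 and 2.19 TPM at day 4 to 44.2 and 28.1 at day 8, OTX2, PAX6 and LHX2 stay near their day 4 levels, and PAX2 falls from 13.2 and 18.9 to 0.0344 and 0.425.

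Remnants of the pluripotency network declined further. Of 24 pluripotency genes tested, 0 rose and 9 fell, with a median log2 change of -0.28; 6 of the 9 were called without each library in turn. POU5F1, the OCT4 gene (ENSG00000204531.17), had been at 1743 and 1744 TPM in the day 0 libraries and went from 20.5 and 32.4 TPM at day 4 to 0.895 and 0.508 at day 8 (log2 change -3.99 ± 0.31, SE; adjusted p = 0.000326). ZSCAN10, a zinc finger partner of the network, fell from 15.6 and 14.7 to 1.30 and 0.581 TPM. L1TD1, VRTN and PRDM14 fell by log2 changes of -2.02, -1.95 and -1.46, though with a pseudocount of 5 PRDM14 had an adjusted p of 0.0522. DNMT3B is a de novo DNA methyltransferase that is also high in early neuroectoderm. It was at 166 and 171 TPM at day 4 and at 62.1 and 62.5 at day 8 (log2 change -1.42, adjusted p = 0.000381). At day 0 DNMT3B was at 115 and 102 TPM, but nuclear protein-coding genes held 55.94% of TPM then and 86.74% to 86.97% at day 4. Whether DNMT3B rose from day 0 to day 4 thus cannot be read from these values. Other members stayed high: LIN28A had 844 and 859 TPM and then 685 and 662 (adjusted p = 0.0555), and SALL4 and DPPA4 were above 99 TPM in all 4 libraries and did not pass.

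More progenitor genes rose than fell. Of 27 neuroectoderm and rosette genes tested, 9 rose and 3 fell, and of 16 radial glia genes 6 rose and 2 fell; without each library in turn, 5 rises and 3 falls and 4 rises and 0 falls were called, and the lists share members such as HES5. VIM, the intermediate filament of neuroepithelium, rose from 333 and 360 to 702 and 661 TPM (log2 change 0.97 ± 0.06, SE; adjusted p = 0.000196). SOX9, a factor of radial glia, rose from 8.05 and 11.3 to 42.8 and 44.1 TPM, and PTPRZ1, a phosphatase receptor of neural stem cells, from 177 and 175 to 309 and 289. The POU factors of neural progenitors POU3F2 and POU3F3 rose by log2 changes of 1.63 and 1.95, and ZBTB16, a factor of neural stem cell renewal, by 1.76. The ZIC family of neural plate factors moved both ways: ZIC2 went from 262 and 260 to 89.6 and 92.9 TPM, ZIC5 from 36.4 and 31.6 to 10.7 and 9.21, and ZIC4 from 0.773 and 1.17 to 8.01 and 13.2. FABP7 and SOX1 rose by 2.40 and 2.34, with adjusted p of 0.0656 to 0.0827 and 0.0762 to 0.0921 without any 1 of the 4 wild-type libraries.

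Of 18 genes of young neurons 5 rose and 2 fell, with a median of 0.28, and 0 of these 7 were called without each library in turn. DCX, a microtubule protein of migrating neurons, rose from 5.48 and 6.21 to 20.7 and 25.7 TPM (adjusted p = 0.00836; 0.0532 to 0.0562 without WT1 day 4 or WT2 day 8). STMN2 rose from 20 and 18.3 to 45.0 and 46.5 TPM and GAP43, a growth cone protein, fell from 18.6 and 17.5 to 5.42 and 6.18; without any 1 of the 4 wild-type libraries their adjusted p were 0.0653 to 0.0856 and 0.0553 to 0.0817. TUBB3, the neuronal tubulin, did not pass (log2 change 0.25, adjusted p = 0.444). Of 9 proneural genes tested 2 rose: DLL1 and BTG2, an antiproliferative gene of neurogenic progenitors (10.8 and 11.9, then 31.1 and 24.3 TPM; adjusted p 0.0505 to 0.0705 without WT1 day 4, WT2 day 4 or WT1 day 8).

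Markers of other cell types were low. Of 16 mesoderm genes 14 were under 1 TPM in all 4 libraries, with HAND1 listed at 0, and their summed level was 9.07 to 10.3 TPM at day 4 and 8.204 to 9.82 at day 8. Of 13 endoderm genes 12 were under 1 TPM, with SOX17 listed at 0; CXCR4, a chemokine receptor that neural progenitors also make, was the exception and rose from 4.04 and 5.14 to 30.0 and 28.6 TPM (adjusted p = 0.000974). Of 14 endothelial and blood genes 11 were under 1 TPM, and the sum was 10.2 to 12.1 TPM and then 14.6 to 15.0. The neural crest sum rose in level from 100.7 to 119.7 TPM at day 4 to 243.1 to 251.5 at day 8, with 1 of 11 tested genes called higher; SOX10 was under 1 TPM and FOXD3 and TFAP2B were listed at 0. In the placode and surface ectoderm list 3 of 11 tested genes rose and 1 fell (0 without each library in turn), among them KRT8 from 61.9 and 62.9 to 118 and 112 TPM (adjusted p = 0.00909; 0.0523 to 0.0598 without WT1 day 4, WT2 day 4 or WT1 day 8), and 10 of 19 were under 1 TPM, KRT5 and KRT14 at 0. Of 6 choroid plexus genes tested, SLC4A5 rose from 0.930 and 1.03 to 8.01 and 4.92 TPM, and TTR was listed at 0. The part of such cells in the changes above was not tested.

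In FGF signalling both called falls were receptors. FGFR2 fell from 69.8 and 73.0 to 13.3 and 6.11 TPM (log2 change -2.84 ± 0.31, SE; adjusted p = 0.00164), and FGFR1, the most abundant FGF receptor of these cells on the TPM scale, from 583 and 705 to 332 and 274. FGFRL1, a receptor without a kinase domain, rose from 20.6 and 25.8 to 54.7 and 57.2 TPM. In all, 5 of 24 FGF pathway genes rose and 2, FGFR1 and FGFR2, fell; 1 and 2 of these were called without each library in turn. Of 30 WNT receptor and antagonist genes 3 rose and 6 fell, with a median of -0.03, and 0 and 2 of these were called without each library in turn. The receptors ROR1 and FZD7 fell from 38.4 and 33.9 to 11.8 and 9.13 TPM and from 176 and 183 to 92.1 and 79.2. The secreted inhibitor SFRP1 fell from 533 and 585 to 274 and 280 TPM, and LGR4, an R-spondin receptor, from 177 and 182 to 88.3 and 82.8; without WT2 day 4 their adjusted p were 0.0505 and 0.0526.

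WLS, the sorting receptor that WNT secretion needs, fell from 78.0 and 56.8 to 27.8 and 15.1 TPM (adjusted p = 0.0152; 0.0716 to 0.0913 without WT1 day 4 or WT2 day 8). The antisense gene GNG12-AS1, which overlaps WLS, fell as well, with an adjusted p of 0.0608 to 0.182 without any day 0 library or any of WT1 day 4, WT2 day 4 and WT2 day 8. Of 26 BMP and TGF-beta genes 3 rose and 2 fell (1 and 1 without each library in turn). FST, a secreted inhibitor of activin, fell from 37.7 and 46.2 to 5.30 and 4.31 TPM (log2 change -2.89, adjusted p = 0.00128). ID4, a BMP-responsive inhibitor of bHLH factors in neural progenitors, rose from 9.86 and 11.5 to 67.4 and 53.9 TPM (log2 change 2.39, adjusted p = 0.000210). Called in the BMP and TGF-beta, hedgehog and retinoic acid lists were 19.2%, 10% and 15.4% of the genes tested, beside 12.6% of all genes. Of 10 hedgehog genes GLI1, a target of the pathway, fell from 4.35 and 1.76 to 0.0546 and 0.0277 TPM (adjusted p 0.0867 to 0.115 without WT1 day 4, WT1 day 8 or WT2 day 8). In the retinoic acid list 1 of 13 rose and 1 fell; CRABP1, a retinoic acid binding protein counted there and among young neurons, rose from 186 and 203 to 570 and 646 TPM (adjusted p 0.0537 to 0.0687 without any 1 of the 4 wild-type libraries).

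Genes that guide axons and cell contacts changed, more of them downward. Of 37 axon guidance genes tested 5 rose and 11 fell, and 3 and 8 of these were called without each library in turn, while the list's median was 0.21, so most of its members that were not called lay above 0. NRP2, a semaphorin and VEGF coreceptor, fell from 157 and 155 to 21.2 and 14.4 TPM (log2 change -3.08 ± 0.20, SE; adjusted p = 0.000175). The semaphorins SEMA6D and SEMA6A fell by log2 changes of -2.36 and -2.12, the slit receptor ROBO1 by -1.61, the ephrin EFNB2 by -1.30 and the ephrin receptor EPHA4 by -1.21. The genes that rose included SEMA5A (7.78 and 8.13, then 25.8 and 28.97 TPM), SEMA3F (14.1 and 13.7, then 47.8 and 38.1) and EFNB1 (39.7 and 45.6, then 102 and 112).

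Of 29 matrix genes 9 rose and 2 fell, with a median of 0.40, and 5 and 0 of these were called without each library in turn. COL2A1, a fibrillar collagen that is also made in neuroepithelium, rose from 161 and 154 to 726 and 660 TPM (log2 change 2.13 ± 0.13, SE; adjusted p = 0.000175), and COL11A1, which assembles with it, from 18.7 and 17.6 to 85.5 and 78.7. Fibronectin (FN1) and the laminin chain LAMC1 rose by 1.35 and 1.46, and LUM, a small proteoglycan, was listed at 0 in both day 4 libraries and at 5.09 and 6.24 TPM at day 8. Of 22 cadherin and epithelial adhesion genes 3 rose and 5 fell (1 and 3 without each library in turn). CLDN6, a tight junction protein of early epithelia, fell from 158 and 163 to 25.6 and 31.9 TPM (log2 change -2.45, adjusted p = 2.23e-05), and the protocadherin PCDH18 from 93.4 and 101 to 34.1 and 26.0. CDH2, the neural cadherin, did not pass (191 and 192, then 238 and 224 TPM).

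Of 30 genes of S phase and replication 1 rose and 9 fell, with a median log2 change of -0.26, and 0 of the 10 were called without each library in turn; MCM4, a helicase subunit, went from 421 and 420 to 263 and 312 TPM and CDC6, which loads the helicase, from 67.9 and 61.4 to 43.8 and 39.7. The adjusted p of MCM4 was 0.0503 to 0.0505 without WT1 day 4 or WT2 day 4, and that of CDC6 0.0517 to 0.0599 without WT1 day 4 or WT2 day 8. Of 28 genes of G2 and mitosis 8 rose and 0 fell, with a median of 0.24, and 2 of the 8 were called without each library in turn; the difference between the phases was not tested. CENPA, the centromeric histone, rose from 25.9 and 26.3 to 50.3 and 51.8 TPM, and HMMR, a spindle protein, from 30.7 and 29.8 to 67.5 and 52.2. Of 15 G1 regulators 7 rose and 2 fell, 2 and 0 of which were called without each library in turn: cyclin D1 (CCND1) rose from 36.1 and 43.02 to 87.9 and 82.9 TPM and the kinase inhibitor CDKN2C from 0.216 and 0.248 to 3.15 and 2.31.

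Among the other lists, of 29 genes of glycolysis and the hypoxia response 4 rose and 3 fell (2 and 1 without each library in turn): HK2, a hexokinase, fell from 35.6 and 33.1 to 10.2 and 11.5 TPM, while the enolase ENO2 and the growth factor VEGFA rose by log2 changes of 1.22 and 1.32. Of 23 sterol synthesis genes 1 rose and 0 fell. Of 20 DNA and chromatin modifiers 3 rose and 5 fell (3 and 2 without each library in turn); HDAC9 rose from 3.90 and 4.66 to 24.5 and 22.0 TPM and the factor PRDM16 from 1.84 and 1.47 to 12.5 and 16.3. Of 21 imprinted genes 8 rose and 1 fell, with a median of 0.57, and 3 and 0 of these were called without each library in turn. DIO3, the deiodinase that inactivates thyroid hormone and a neighbour of DLK1 in an imprinted cluster on chromosome 14, rose from 0.775 and 0.583 to 19.3 and 21.7 TPM (log2 change 3.68, adjusted p = 0.000269). IGF2, a growth factor, and PLAGL1, a zinc finger factor, rose by 1.68 and 1.51.

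**Figure D4:**
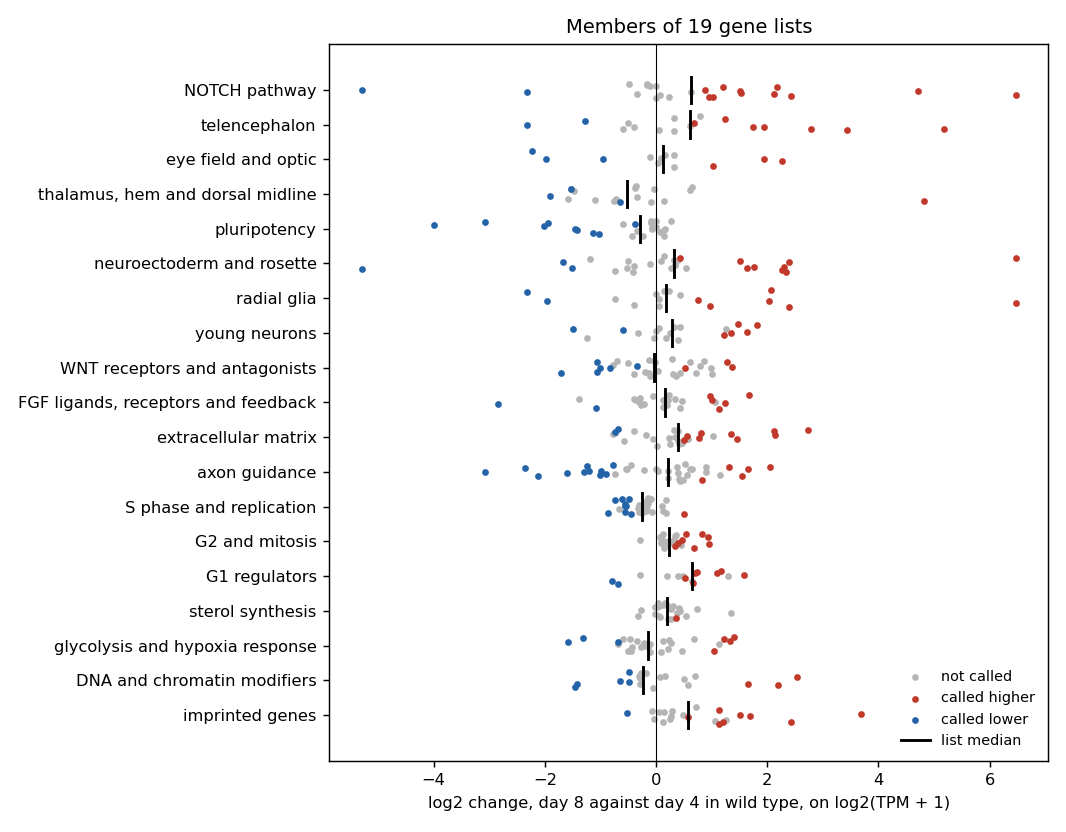
Log2 change from day 4 to day 8 in wild type of each tested member of 19 gene lists, on log2(TPM + 1), with genes called higher in red, lower in blue and the others in grey; vertical bars are list medians. The NOTCH list (median 0.63) holds both the largest rise, HES5, and the largest fall, HES3, and the list of S phase genes (median -0.26) lies left of that of G2 and mitosis (median 0.24).

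Several of the largest changes fell outside these lists. Among protein-coding genes, NPPB, which encodes the natriuretic peptide BNP, was listed at 0 in both day 4 libraries and at 55.1 and 61.1 TPM at day 8 (adjusted p = 7.23e-05). ANKRD1, a target of mechanical and YAP signalling, stood at 0.227 and 0.454 TPM and then 29.2 and 41.9, and the annexins ANXA1 and ANXA2, membrane-binding proteins, at 0 and 0.129 and then 19.3 and 27.8, and at 3.40 and 1.74 and then 42.0 and 49.0. These genes were named by a rule that required the days not to overlap. LCN9, CRIP1, FAM69C, MPPED1, C1orf61, SLC16A14, the cardiac actin ACTC1 and CD82 were also among the 20 largest rises, with log2 changes of 3.16 to 4.19. ANXA2 and ACTC1 had been higher at day 0 than at day 4, at 71.8 and 73.8 TPM and at 17.4 and 12.7 TPM.

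The 20 largest falls included LRAT, which makes retinyl esters (28.8 and 29.9, then 2.35 and 2.90 TPM), VWF, a clotting protein of endothelial cells (12.1 and 10.99, then 0.577 and 0.611), the proteoglycan GPC4 (58.5 and 57.7, then 9.34 and 8.51) and the integrin ITGA6 (111 and 127, then 16 and 23.1). PCYT1B, ZACN, SEZ6, C6orf141, SCGB3A2, VSNL1 and FJX1 also fell, by log2 changes of -2.93 to -2.39. Among noncoding genes JAKMIP2-AS1 fell from 87.7 and 83.1 to 1.07 and 1.07 TPM (log2 change -5.39, adjusted p = 6.76e-06), RP11-148B6.1 from 406 and 269 to 10.2 and 4.77, and LINC01405 from 8.597 and 6.92 to 0 in both. The lincRNA RP11-275I4.2 fell from 64.8 and 56.3 to 6.69 and 2.18 (adjusted p 0.0514 without WT1 day 4), and RP11-622O11.4 from 21.6 and 11.9 to 0.163 and 0 (0.0543 to 0.0898 without any 1 of the 4 wild-type libraries). LINC00354 was listed at 0 at day 4 and at 8.27 and 15.0 TPM at day 8; SCAANT1 rose from 0 and 1.92 to 38.3 and 14.1, with an adjusted p of 0.106 to 0.110 without WT1 day 4 or WT1 day 8. The most abundant nuclear genes were not called: EEF1A1, a translation factor, had mean levels of 11187.9 and 10407.1 TPM, and RPL41 7650.2 and 7910.3.

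The same step was measured in the libraries labelled SOX21-/-, which share no library with the wild-type step. Their SOX21 mRNA stood at 162 and 143 TPM at day 4 and 253 and 69.9 at day 8, overlapping wild type at both days, and whether the counted reads lie in the altered part of the gene is not given, so this checks nothing about the label. Of the 1848 genes that rose in wild type, 1318 (71.3%) were also called higher in the SOX21-/- step, in which 19% of all genes were called higher, and of the 1210 that fell 666 (55.0%) were also called lower, beside 7.15% of all genes; in all 26.1% of genes were called there, and 14 and 36 of the wild-type genes were called the other way. HES5 rose there from 0.838 and 1.505 to 112 and 128 TPM, HES4 from 18.5 and 20.05 to 594 and 646, and WNT7B from 0.489 and 0.531 to 54.6 and 46.9. The difference between the 2 genotypes' steps, tested as an interaction in the same limma fit, was called for 270 genes (1.11%), 79 with a more positive change in wild type (0.326%) and 191 with a more negative one (0.788%), and for 136 of the 3058. This count rests on the settings: it was 104 (46 and 58) after median-of-ratios scaling, which moves the median difference over all genes from -0.12 to 0, 45 with only the 8 libraries of days 4 and 8, and 54 to 242 without 1 library in turn.

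DIO3, which rose in wild type to 19.3 and 21.7 TPM, differed by 3.89 on the log2 scale (0.889 and 0.284 TPM in SOX21-/- at day 8; adjusted p = 0.00638) and the calpain-like gene CAPN6 by 2.11 (16.1 to 17.9 TPM at day 4 and 124 to 165 at day 8 in wild type, 9.14 to 9.36 and 16.5 to 19.7 in SOX21-/-). These 2 and HES3, GPC4, ITGA6, ID4 and EFNB2 were called without each library in turn. With the replicate block, the genotype difference of EFNB2, ITGA6 and ID4 had adjusted p of 0.0517, 0.0529 and 0.0536 by limma. HES3 fell to 1.22 and 1.09 TPM in wild type and stood at 44.4 and 73.6 TPM in SOX21-/- at day 8, a difference of -4.24 (adjusted p = 0.00638). GPC4 stood at 43.3 and 40.9 TPM there, against 9.34 and 8.51 in wild type (difference -2.34, adjusted p = 0.00209). For FGFR2, which rose in level to 114 and 153 TPM in SOX21-/- at day 8, the difference was -3.49 (adjusted p = 0.0169; 0.0533 to 0.0708 without S13 day 4, S23 day 8, WT1 day 4 or WT2 day 4).

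**Figure D5:**
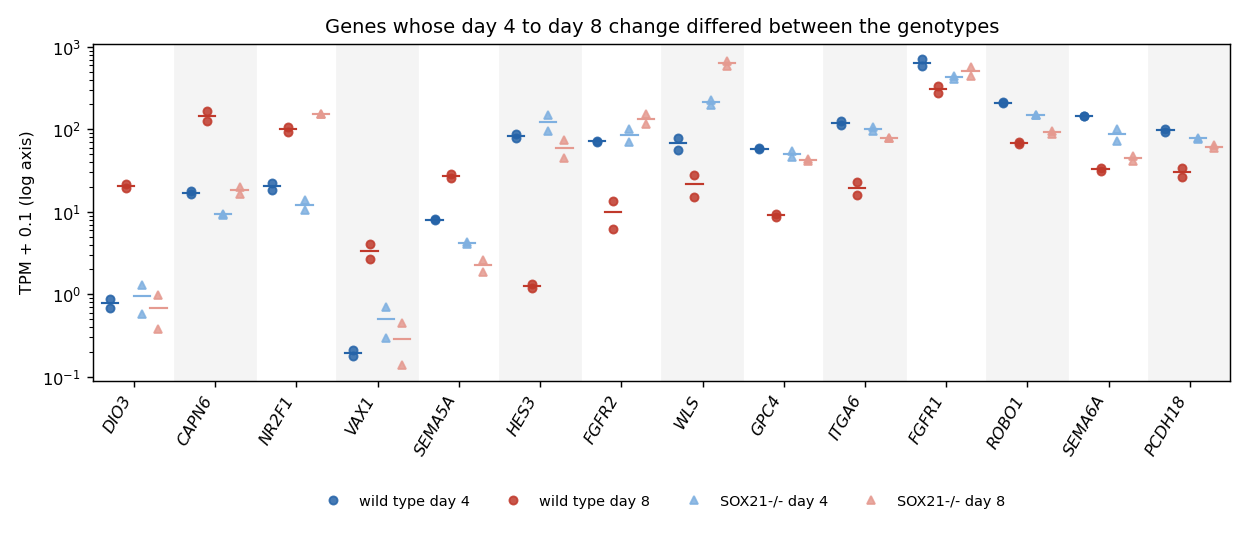
TPM + 0.1 (log axis) of 14 genes with a called difference between the genotypes' steps, in each wild-type library (circles) and each library labelled SOX21-/- (triangles) at day 4 (blue) and day 8 (red); bars are group means of 2 libraries. DIO3 reaches 19.3 and 21.7 TPM at day 8 in wild type and 0.889 and 0.284 in SOX21-/-, while HES3 stands at 1.22 and 1.09 TPM in wild type and 44.4 and 73.6 in SOX21-/-.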

How the data were processed

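Polyadenylated RNA of 12 libraries, 6 groups of 2 by genotype and day, was measured. Per the submitters' processing notes, which name CASAVA 1.7, Salmon 0.8.2 and hg38, the authors deposited TPM per gene. Annotation release and strand use are not given in the sources used here, and the labels name several sequencers without assigning them to libraries. TPM keeps no read numbers, so depth is unknown. From these values, limma 3.58.1 in R 4.3.3 was fitted to log2(TPM + 1), pseudocount 1, of 24248 genes with 1 TPM in at least 2 libraries: a mean per group over all 12 libraries, moderated variances with a trend, two-sided tests, Benjamini-Hochberg adjustment over all genes, called at 0.05. The contrasts were wild-type day 8 minus day 4, the same in SOX21-/-, and their difference. The script was tested on simulated data.

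Lists are described by counts and medians, without a test. The members and lists were chosen with earlier results of these data known. Named were members of the lists, SOX21 and WNT8B, the 20 largest changes each way among called protein-coding genes with 5 TPM or more in the higher group and non-overlapping days, the 5 largest each way of lincRNA or antisense genes by the same criteria, the most abundant genes, and the 5 largest genotype differences each way among genes called in both. RMRP met the rule, but 2 identifiers share its symbol, so it is not reported here, nor are some other genes that met it. Coordinates came from GENCODE 29 on GRCh38, matched to 57881 of 58219 identifiers, and promoters from RefSeq. Alternatives were other scalings, pseudocounts and filters, fewer libraries, nuclear protein-coding genes only, other moderation, a replicate block and each library left out.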

Additional observations from a re-analysis of the deposited data

Results flagged for a closer look

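The change from day 4 to day 8 differed between wild type and the libraries labelled SOX21-/- by limma's test of the interaction for these named genes; each value is the wild-type log2 change minus the SOX21-/- one, and no cause was tested. For 13 of these 22 genes the call ended with 1 library left out (adjusted p of 0.0503 to 0.141). They were FGFR1, FGFR2, GNG12-AS1, LINC00354, MIR4701, NR2F1, PCDH18, ROBO1, RP11-148B6.1, SEMA5A, SEMA6A, VAX1 and WLS. With median-of-ratios scaling 10 of the 13 lost it, all but FGFR2, MIR4701 and SEMA5A (0.0509 to 0.0977). With only the 8 libraries of days 4 and 8 the call ended for 11 genes (0.0516 to 0.131), and with the replicate block for 15 (0.0517 to 0.113). It was positive for DIO3 (3.89), LINC00354 (2.95), SEMA5A (2.37), VAX1 (2.17) and CAPN6 (2.11), and for the pseudogene RP11-476I15.5 (4.28), which was listed at 0 in wild type at day 4 and in SOX21-/- at day 8.

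It was negative for the microRNA gene MIR4701 (-6.40), HES3 (-4.24), GNG12-AS1 (-4.06), AC006538.4 (-4.03), FGFR2 (-3.49), WLS (-3.20), RP11-148B6.1 (-2.69), GPC4 (-2.34), ITGA6 (-2.22), ID4 (-2.16), EFNB2 (-1.75), PCDH18 (-1.34), FGFR1 (-1.33), NR2F1 (-1.31), SEMA6A (-1.18) and ROBO1 (-0.901). AC006538.4 was at 2.48 and 2.72 TPM in wild type at day 4 and listed at 0 at day 8, and in SOX21-/- listed at 0 at day 4 and at 3.97 and 3.13 at day 8. MIR4701 was at 25.8 and 9.62 and then 3.19 and 0 TPM in wild type; its call in the wild-type step had an adjusted p of 0.0804 to 0.122 without WT1 day 4 or WT2 day 8. For ID4 both genotypes rose, SOX21-/- from 6.22 and 5.16 to 150 and 162 TPM.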

How the results depend on the processing

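The count of genes called from day 4 to day 8 ran from 1038 to 3188 without 1 library in turn (limma, where a lone library is taken to vary like the other groups) and was 1442 for changes of at least 2-fold. Under the other settings run it stayed within 1.5 times of 3058. Line numbers did not pair the libraries by their values: deviations between days 4 and 8 correlated by 0.00014 for WT1 and WT2 and by 0.071 for S13 and S23. With the replicate block 2142 genes were called in the wild-type step, and 17 for the genotype difference, which was 104 with median-of-ratios scaling, 154 and 425 with pseudocounts of 0.1 and 5, 45 with only the 8 libraries of days 4 and 8, and 54 to 242 without 1 library in turn. Of 128 named genes called, 0 changed direction under any setting; the call ended for 2 with median-of-ratios scaling, 0 with quantile normalization, 7 with a pseudocount of 0.1, 3 with one of 5 (PRDM14, FOXB1 and GNG12-AS1), 1 with the block, 4 with only the 4 wild-type libraries, and 25, 21, 17 and 15 without WT1 day 4, WT2 day 4, WT1 day 8 and WT2 day 8. With 2 libraries per day and unknown depth, the counting error of low values could not be estimated here.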

Other observations

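Gene families taken by symbol after their values were seen are given without a test, and not all of them shifted. Among 56 tested genes of ribosome biogenesis 1 was higher and 23 were lower at day 8, with a median log2 change of -0.53, beside 82 cytosolic ribosomal protein genes of which 1 was higher and 4 lower, with a median of -0.06. Of 10 MCM genes 5 were lower and 0 higher (median -0.38), of 12 SR splicing factors 5 were lower and 0 higher (median -0.32), and of 8 subunits of the CCT chaperonin, which folds actin and tubulin, 3 were lower and 0 higher (median -0.34). Of 9 annexins 4 were higher and 0 lower (median 0.98), of 8 inhibitors of cyclin-dependent kinases 4 were higher and 0 lower (median 0.74), and of 33 collagens 10 were higher and 2 lower (median 0.40). Of 473 ZNF zinc finger genes 20 were higher and 26 lower (median -0.01). Of 8 Bardet-Biedl genes 2 were higher and 0 lower (median 0.53), and of 11 S100 genes 0 were called (median 0.45). Over all genes tested 7.62% were higher and 4.99% lower. These medians kept their sign under median-of-ratios scaling and quantile normalization.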
